A study of Oryza sativa with 3 samples.

Results

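Closely clustered peaks of OsWRKY11 on rice DNA are described here: peaks whose summit lay at most 1000 bp from the summit of another peak in the same list. The summit is the base with the most sequenced fragments. Each of the 2 peak lists was taken alone, and peaks with a pileup (the number of fragments stacked at the summit) of 40 or more were left out first. In replicate 1, 2280 of the remaining 15796 peaks were clustered (14.4%, 95% Wilson interval 13.9% to 15.0%), out of 15980 in the whole list. In replicate 2, 3292 of 21224 were clustered (15.5%, 15.0% to 16.0%), out of 21447. The remaining 13516 and 17932 peaks are called isolated. Over both lists there were 5572 clustered peaks among 37427. Positions and pileups in the lists chose these peaks, so their closeness is a description and carries no test.

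WRKY proteins are plant transcription factors that bind the W-box, a short DNA element whose core is the same for most of the family. W-boxes often lie in groups in the promoters of genes under WRKY control, the promoters of WRKY genes among them. OsWRKY11 is a rice member of the family that is known from work on stress tolerance, while the present series is about heading, the emergence of the flowering panicle. Clustered sites are of interest because neighbouring elements may each be bound, and because several peaks may also come from a single stretch of enriched fragments.

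The assay was DAP-seq (DNA affinity purification followed by sequencing), where a tagged protein made outside the cell pulls down fragments of naked genomic DNA that are then sequenced. The 3 libraries were 2 reactions of OsWRKY11-Halo (replicate 1 and replicate 2) and 1 reaction of GFP-Halo, green fluorescent protein with the same Halo tag, as the control. The DNA came from seedlings of the rice cultivar Nipponbare, in fragments of 200 to 800 bp, and carried no treatment or transgene that the DAP-seq description names. The labels' extraction text also mentions formaldehyde-fixed shoots of transgenic pUbi:OsWRKY11-Myc plants, and it is unclear from the labels whether that step was part of the DAP-seq work. Nothing in the labels says that the OsWRKY11-Halo reactions used separate protein or DNA preparations, and GFP-Halo was the control of both lists. The depth of the libraries is unknown, since no read totals were at hand. Fold enrichments, q-values and pileups are the authors' own values per peak.

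The clustered peaks formed 1059 clusters in replicate 1 and 1531 in replicate 2, when every neighbour within 1000 bp was joined. Most clusters were pairs: 926 of those in replicate 1 (87.4%) and 1337 of those in replicate 2 (87.3%) held 2 peaks. Clusters of 3 numbered 108 and 163, and clusters of 4 numbered 21 and 27. Clusters of 5 were found 4 and 3 times, and a single cluster of 6, in replicate 2, was the highest number of peaks in either list. The distance from the first to the last summit of a cluster had a median of 608 bp in replicate 1 and 609 bp in replicate 2, and reached 2659 and 3064 bp.

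The number of clustered peaks was set beside the number that the same peaks would give if each lay at a uniformly random place on its chromosome. That number was calculated from the density of peaks and not drawn at random. Uniform placement would leave 1287 clustered peaks in replicate 1 (8.15%), and the observed number was 1.77 times as high (1.71 to 1.84, from the Wilson interval of the observed share). In replicate 2 it would leave 2288 (10.8%), and the observed number was 1.44 times as high (1.39 to 1.48). With the density of each 1 Mb window in place of that of the chromosome, the ratios were 1.70 and 1.39. Larger clusters departed more from uniform placement. Clusters of 3 or more peaks numbered 133 in replicate 1 and 194 in replicate 2, where uniform placement gives 26.3 and 61.7. Uniform placement takes every base up to the last peak of a chromosome as open to a peak. Parts of the genome where reads cannot be placed were not taken out, and their part in these ratios was not tested. Uniform placement also lets neighbouring summits lie at most 200 bp apart, 134 times in replicate 1 and 241 times in replicate 2. The lists held 8 and 10 such distances, and the part of this scarcity in the ratios was not tested.

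The excess was larger among stronger peaks. With only the peaks at q-values up to 0.05 kept, 7.89% of those in replicate 1 and 7.16% of those in replicate 2 were clustered with each other, and these shares were 3.21 and 2.31 times those of uniform placement. Among peaks with a fold enrichment of at least 3 the ratios were 2.70 and 2.29. The shares themselves were lower than in the full lists. Fewer peaks were left, which lowers the share at uniform placement too, and the part of this in the lower shares was not tested.

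The spacing of neighbouring summits within clusters was almost the same in both lists. In replicate 1 the 1221 spacings ran from 161 to 1000 bp with a median of 556 bp and quartiles of 409 and 746 bp. In replicate 2 the 1761 spacings ran from 156 to 1000 bp with a median of 555 bp and quartiles of 400 and 751 bp. Both lists have the same upper bound of 1000 bp, which itself limits how far these values can differ. With clusters within 2000 bp the medians were 871 bp in replicate 1 and 926 bp in replicate 2. Short spacings were scarce, with 8 of at most 200 bp in replicate 1 and 10 in replicate 2. Neither list holds peaks whose ends lie closer than 115 bp (replicate 1) or 113 bp (replicate 2), so nearer sites can only appear inside a single peak. Spacings over 300 and up to 400 bp numbered 200 in replicate 1, which was 3.02 times the uniform number, and 310 in replicate 2, or 2.61 times. Beyond 500 bp the ratio fell step by step in replicate 2, from 2.25 at 500 to 600 bp to 1.48 at 900 to 1000 bp. In replicate 1 it went from 2.96 to 1.83 over the same range, with 1.79 at 800 to 900 bp.

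**Figure D1:**
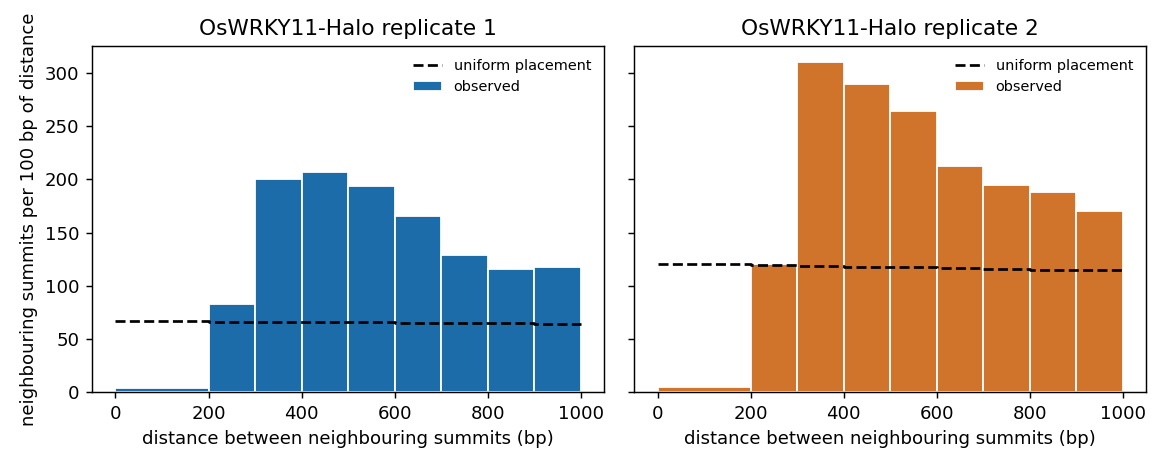
Distances between neighbouring summits of at most 1000 bp, as the number per 100 bp of distance (bars), beside the number expected at uniform placement (dashed line), for replicate 1 (left) and replicate 2 (right). The first bar spans 200 bp; in both lists the counts rise steeply above 300 bp, peak between 300 and 500 bp and stay above the dashed line up to 1000 bp.

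The DNA fragments measured 200 to 800 bp, and 980 spacings of replicate 1 (80.3%) and 1394 of replicate 2 (79.2%) lay in that range. The bound of 1000 bp itself sets most of this share: of spacings over 200 bp, 80.7% and 79.6% were at most 800 bp, where uniform placement gives 75.3% and 75.4%. Between the end of a peak and the start of the next within a cluster lay a median of 329 bp in replicate 1 and 336 bp in replicate 2. In 296 cases (24.2%) and 422 cases (24.0%) this gap was under 200 bp. In clusters of 3 the first and the second spacing differed by at most 100 bp in 24 of 108 in replicate 1 and in 49 of 163 in replicate 2. The number that unrelated spacings would give was not computed. Their Pearson correlation was 0.0600 in replicate 1 and 0.00334 in replicate 2. Spacings that vary around a fixed distance can also be uncorrelated, so these values do not decide whether spacing is regular.

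The bound of 1000 bp did not mark a break in the lists. Counting all pairs of summits and not only neighbours, pairs over 250 and up to 500 bp apart were 2.79 times as many as at uniform placement in replicate 1 (exact 95% Poisson interval 2.54 to 3.05) and 2.24 times in replicate 2 (2.08 to 2.42). The ratio was 2.05 and 1.66 at 750 to 1000 bp, and 1.75 and 1.55 at 1000 to 1500 bp. It declined to 1.25 and 1.21 at 3000 to 5000 bp and to 1.08 and 1.07 at 10000 to 20000 bp. Replicate 1 had the higher ratio in each of these classes. A peak can enter more than 1 pair, which the intervals do not take into account. Peaks just inside and just outside the bound had similar values. In replicate 1 and replicate 2, those with their nearest summit over 900 and up to 1000 bp away (206 and 317 peaks) were enriched by a median of 2.87-fold and 2.71-fold. Those with it over 1000 and up to 1100 bp away (171 and 255 peaks) were enriched 2.81-fold and 2.71-fold, and the median pileup was 11 in all 4 sets.

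**Figure D2:**
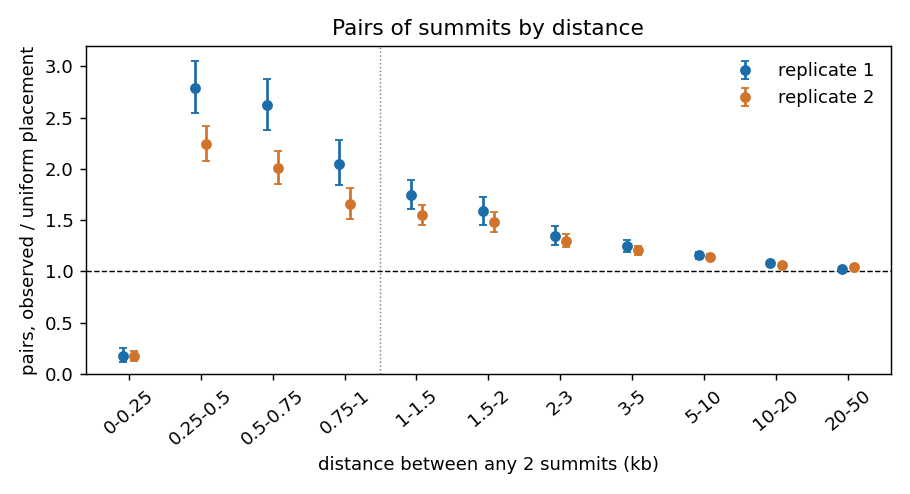
Number of pairs of summits on the same chromosome divided by the number at uniform placement (vertical axis), by the distance between the summits in kb (horizontal axis, classes of unequal width), with exact 95% Poisson intervals. The dotted line marks 1 kb and the dashed line a ratio of 1; the ratio is 0.179 and 0.172 in the first class, highest in the next, and declines without a break at 1 kb.

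Clustered peaks were a little stronger and longer than isolated ones, which is given as a description, since both come from the lists that chose them. Their median fold enrichment over GFP-Halo was 2.92 in replicate 1 against 2.81 for isolated peaks, and 2.80 against 2.71 in replicate 2. The upper quartiles were 3.33 against 3.10 and 3.20 against 3.03. Of clustered and isolated peaks of replicate 1, 37.1% and 27.8% had a q-value no higher than 0.05, and of those of replicate 2, 33.0% and 26.5%. The median pileup was 11 for both kinds in both lists, so most peaks rest on few fragments. The median length was 175 bp for clustered and 159 bp for isolated peaks in replicate 1, and 168 and 156 bp in replicate 2. Peaks of 300 bp or more made up 15.2% of clustered and 7.38% of isolated peaks in replicate 1, and 12.2% and 7.25% in replicate 2. The highest fold was that of an isolated peak in both lists. The maximum was 6.40 among clustered and 8.19 among isolated peaks in replicate 1, and 7.14 and 8.12 in replicate 2. Each of these isolated peaks overlapped the strongest clustered peak of the other list.

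The GFP-Halo background recovered from pileup and fold stood at its lowest level in most peaks of both kinds, 2.91 fragments in replicate 1 and 3.06 in replicate 2. It stood at that level under 63.7% of clustered and 58.0% of isolated peaks in replicate 1, and under 56.4% and 52.8% in replicate 2. Few clustered peaks lay near the very high peaks that had been left out: 6 clustered peaks (0.263%) in replicate 1 and 9 (0.273%) in replicate 2 lay within 10000 bp of a peak with a pileup of 40 or more, beside 32 (0.237%) and 38 (0.212%) isolated ones.

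Within pairs, the peaks resembled each other little in strength. Across the 926 pairs of replicate 1 the fold of the left and the right peak had a Spearman correlation of 0.126 and a Pearson correlation of log2 fold of 0.133, and across the 1337 pairs of replicate 2 these were 0.0604 and 0.0643. The peaks of a pair come from the same library and nearly the same local background, so these are descriptions across pairs. Folds in the lists start at 2.00 and clustered peaks had a median pileup of 11. The part of this cut and of counting error in the low correlations was not tested. The stronger peak of a pair had a median fold of 3.31 in replicate 1 and the weaker 2.70, and in replicate 2 the medians were 3.08 and 2.56. Both peaks stood on the lowest background in 449 pairs (48.5%) of replicate 1 and 500 (37.4%) of replicate 2.

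The other list did not choose the clustered peaks, and recovery in it was therefore compared between clustered and isolated peaks. A peak was called recovered when it had a partner, a peak of the other list that covered 50% or more of the shorter of both. In replicate 1, 651 of 2280 clustered peaks had a partner (28.6%, 95% Wilson interval 26.7% to 30.4%) beside 16.8% of all its peaks under the pileup bound. Of isolated peaks, 2008 of 13516 did (14.9%, 14.3% to 15.5%), so that the clustered share was 1.92 times as high (95% interval of the ratio 1.78 to 2.07). In replicate 2, 706 of 3292 clustered peaks had a partner (21.4%, 20.1% to 22.9%) beside 12.5% of all its peaks, and 1954 of 17932 isolated peaks did (10.9%, 10.4% to 11.4%), a ratio of 1.97 (1.82 to 2.13). The clustered share was the higher in each of the 12 chromosomes in both lists. In replicate 1 the chromosomes had clustered shares of 22.2% to 32.4% and isolated shares of 12.6% to 16.6%. In replicate 2 these ranges were 15.8% to 29.9% and 9.46% to 12.3%. These intervals cover counting error only. Neighbouring peaks are not independent and the lists share a control, so no p-value is given. With only the leftmost peak of each cluster counted, the shares were 27.8% and 21.2%.

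Recovery was higher where the nearest peak of the same list lay within 1000 bp than where it lay farther away. Among replicate 1 peaks whose nearest summit lay over 10000 and up to 50000 bp away, 13.7% had a partner (12.8% to 14.6%, n = 5626). It was 19.1% (17.2% to 21.1%, n = 1577) at 1000 to 2000 bp, 25.9% (23.6% to 28.3%, n = 1319) at 500 to 1000 bp and 32.3% (29.4% to 35.3%, n = 961) at up to 500 bp. In replicate 2 the shares over the same classes were 9.62%, 13.9%, 21.1% and 21.9%, and the last pair differed by less than their intervals (19.3% to 23.0% and 19.8% to 24.1%). Beyond 50000 bp they were 12.5% (9.24% to 16.7%, n = 304) in replicate 1 and 11.8% (7.37% to 18.3%, n = 136) in replicate 2, the latter not below the next classes. Just inside the bound, at 900 to 1000 bp, 27.7% of replicate 1 peaks and 13.6% of replicate 2 peaks had a partner. Just outside, at 1000 to 1100 bp, the shares were 21.1% and 16.9%, with intervals that overlap those inside in both lists.

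**Figure D3:**
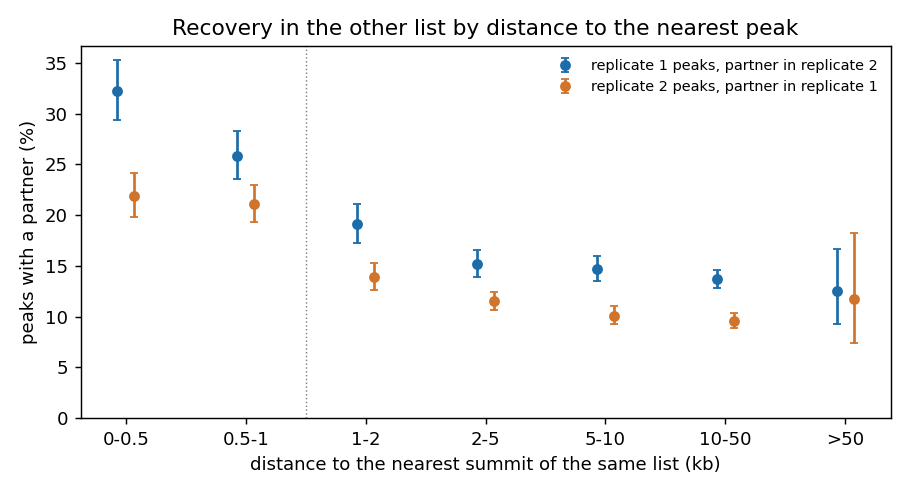
Share of peaks with a partner in the other list (vertical axis, percent, with 95% Wilson intervals) by the distance in kb from the peak's summit to the nearest summit of its own list (horizontal axis, classes of unequal width). Clustered peaks are left of the dotted line at 1 kb; in the nearest class the share is 32.3% in replicate 1 and 21.9% in replicate 2, and in that of 10 to 50 kb it is 13.7% and 9.62%.

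The difference in recovery was present at like strength. At folds from 2 to 2.5 in replicate 1, 17.5% of clustered (13.5% to 22.2%, n = 292) and 7.99% of isolated peaks (6.98% to 9.13%, n = 2466) had a partner. From 3 to 3.5 the shares were 31.9% (28.5% to 35.6%, n = 664) and 16.4% (15.2% to 17.6%, n = 3563), and from 4 to 5 they were 58.5% (49.9% to 66.6%, n = 130) and 44.8% (40.3% to 49.3%, n = 467). At a fold of 5 or more, 6 of 8 clustered and 27 of 36 isolated peaks had a partner, which are equal shares. In replicate 2 the clustered share was the higher in every class, with 11.5% against 6.40% at a fold from 2 to 2.5 and 4 of 4 against 11 of 20 peaks at 5 or more. With isolated peaks weighted to the fold classes of the clustered ones, the ratio of the shares was 1.71 in replicate 1 and 1.81 in replicate 2. Clustered peaks were also longer, and with isolated peaks weighted to their classes of length it was 1.57 and 1.68. Under a stricter partner rule, an overlap of at least 50% of both peaks, it was 1.55 and 1.58.

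**Figure D4:**
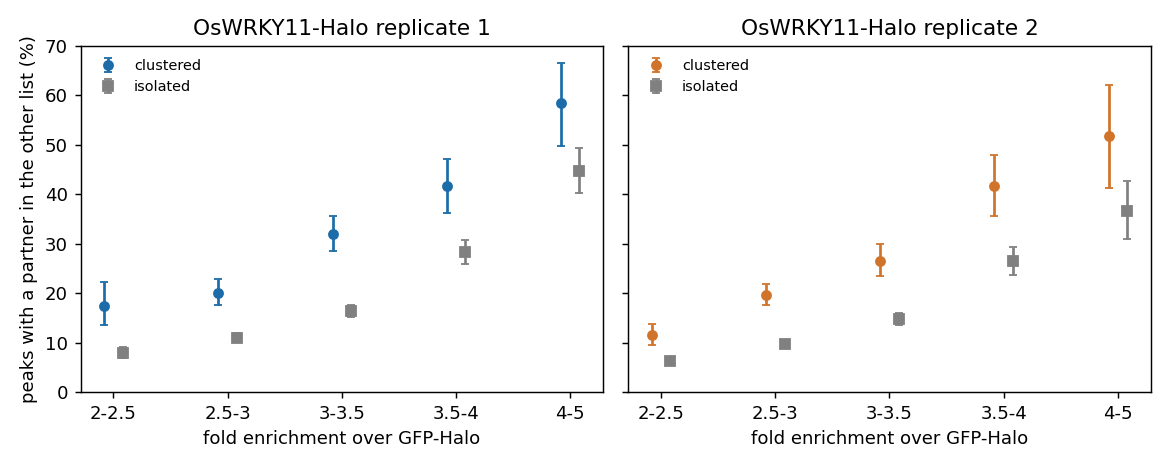
Share of peaks with a partner in the other list (vertical axis, percent, with 95% Wilson intervals) by fold enrichment over GFP-Halo (horizontal axis), for clustered (coloured circles) and isolated peaks (grey squares) of replicate 1 (left) and replicate 2 (right). Folds of 5 or more, with 8 and 4 clustered peaks, are left out; the clustered share is the higher in all 5 classes drawn of each list.

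Larger clusters had somewhat more recovered peaks. In replicate 2, 28.5% of the 618 peaks in clusters of 3 or more had a partner (25.1% to 32.2%), against 19.8% of the 2674 peaks in pairs (18.4% to 21.4%). In replicate 1 the shares were 31.8% (27.5% to 36.3%, n = 428) and 27.8% (25.8% to 29.9%, n = 1852), with overlapping intervals. Within pairs of unequal fold, the stronger peak had a partner in 284 of 859 pairs (33.1%) and the weaker in 200 (23.3%) in replicate 1. In replicate 2 these numbers were 286 (23.0%) and 212 (17.0%) of 1244.

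Recovery was also counted per cluster, where 2 or more recovered peaks cannot be more frequent than at least 1. Of the 1059 clusters of replicate 1, 552 (52.1%) had no peak with a partner, 371 (35.0%) had 1 and 136 had 2 or more (12.8%, 95% Wilson interval 11.0% to 15.0%). Of the 1531 clusters of replicate 2, 980 (64.0%) had none, 408 (26.6%) had 1 and 143 had 2 or more (9.34%, 7.98% to 10.9%). In 102 clusters of each list every peak had a partner. Of the 136 and 143 clusters with 2 or more partnered peaks, 30 and 31 had peaks sharing a long partner in the other list. Counted by summits, 29 clusters of replicate 1 (2.74%, 1.91% to 3.91%) had at least 2 summits inside a single peak of replicate 2, and 37 clusters of replicate 2 (2.42%, 1.76% to 3.31%) inside a single peak of replicate 1. Of these long peaks, 22 of 29 in replicate 2 and 27 of 37 in replicate 1 were isolated in their own list. Among all peaks under the pileup bound, 84.5% of replicate 2 and 85.6% of replicate 1 were isolated. A cluster with at least 2 separate partners that were themselves clustered together in the other list was found 99 times in each direction, which is 9.35% of the replicate 1 clusters (7.74% to 11.3%) and 6.47% of the replicate 2 clusters (5.34% to 7.81%).

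Both peaks of a pair had a partner in 96 of 926 pairs of replicate 1 (10.4%), where the product of the shares of its peaks gives 71.6, and in 95 of 1337 pairs of replicate 2 (7.11%), where the product gives 52.5. In 24 and 26 of these pairs a single peak of the other list was the partner of both, which leaves 72 and 69 with separate partners. The products count peaks with a shared partner too, so 72 and 69 cannot be set against them. At least 1 peak had a partner in 45.8% of replicate 1 pairs spaced up to 400 bp (39.2% to 52.5%, n = 212) and in 42.2% of those spaced 800 to 1000 bp (35.3% to 49.4%, n = 185). The shares in replicate 2 were 32.3% (27.5% to 37.5%, n = 334) and 28.0% (23.1% to 33.4%, n = 286), with 36.0% (30.8% to 41.5%, n = 303) at 600 to 800 bp. Both peaks had a partner in 12.3% of replicate 1 pairs at 600 to 800 bp (8.57% to 17.3%) and in 7.03% at 800 to 1000 bp (4.15% to 11.7%), and in 6.60% and 5.24% in replicate 2. The intervals of these classes overlap. For 102 neighbouring peaks of replicate 1 with separate partners, the median spacing was 584 bp in replicate 1 and 603 bp in replicate 2. The spacing of the same pair differed by a median of 122 bp between the lists, and by at most 100 bp in 45 of the 102. Partners overlap by the rule, which itself limits how far these spacings can differ.

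Clustered peaks also had more peaks of the other list beside them. This count took summits of the other list within 1000 bp that were no partner of any peak of the same cluster, and which may overlap one by less than 50%. Such a summit was present for 643 of 2280 clustered peaks of replicate 1 (28.2%, 26.4% to 30.1%), beside 18.5% of all peaks, and for 2273 of 13516 isolated ones (16.8%, 16.2% to 17.5%), a ratio of 1.68 (1.56 to 1.81). In replicate 2 it was present for 720 of 3292 clustered peaks (21.9%, 20.5% to 23.3%), beside 13.8% of all peaks, and for 2204 of 17932 isolated ones (12.3%, 11.8% to 12.8%), a ratio of 1.78 (1.65 to 1.92). Uniform placement of the other list would give 10.8% and 8.14%, so isolated peaks lay above it too. The clustered share was the higher in all 12 chromosomes in both lists.

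Clusters were found on every chromosome. The share of clustered peaks ran from 10.5% on chromosome 10 (8.72% to 12.6%) to 17.0% on chromosome 1 (15.4% to 18.7%) in replicate 1. In replicate 2 it ran from 13.2% on chromosome 6 (11.7% to 14.8%) to 16.7% on chromosome 9 (14.8% to 18.8%). The order was not the same in both lists: chromosome 10 had 15.4% (13.6% to 17.4%) in replicate 2, close to that list as a whole. The share exceeded uniform placement on all 12 chromosomes, and was 1.30 times (chromosome 10) to 2.03 times (chromosome 3) as high in replicate 1. In replicate 2 this ratio lay between 1.23 (chromosome 6) and 1.57 (chromosome 4).

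The clusters with the most peaks are given by position, as no source used here gives the genome build of the lists, and no gene was tied to them. In replicate 1 the 4 clusters of 5 peaks are all named, because 3 of them had the same median fold. The cluster on chromosome 8 from 5924866 to 5927394 had spacings of 390, 479, 373 and 912 bp. Its fold enrichments in replicate 1 were 3.33, 3.56, 3.33, 4.61 and 3.84, with pileups from 12 to 17. Its second and its middle peak had partners in replicate 2, with folds of 2.71 and 3.20 and summits 10 and 65 bp away. The cluster on chromosome 1 from 34196682 to 34198945 had folds of 3.07, 3.33, 2.81, 3.58 and 2.30, all on the lowest background. There again the second and the middle peak had partners, at folds of 3.20 and 2.95. The clusters on chromosome 3 from 14258364 to 14260929 and from 14471529 to 14473486 each had a partner for the middle peak alone. The folds in the former ran from 2.06 to 3.84 and in the latter from 2.81 to 3.54.

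In replicate 2 the cluster of 6 peaks lay on chromosome 8 from 16256005 to 16259439. Its folds in replicate 2 were 3.96, 2.59, 3.21, 2.48, 2.48 and 3.09, with pileups of 22, 13, 15, 12, 10 and 18, and none of its peaks stood on the lowest background. The first, second and last peaks had partners in replicate 1 with folds of 2.70, 2.57 and 3.10. The cluster of 5 on chromosome 11 from 26955865 to 26958278 had folds from 2.71 to 4.43, and partners for its first peak (fold 4.20 in replicate 1, summit 231 bp away) and its last (2.81, 76 bp away). The cluster of 5 on chromosome 11 from 7002463 to 7005226 had partners for 3 of its peaks, with folds of 3.16, 3.45 and 2.93 in replicate 2 and 2.56, 3.07 and 3.07 in replicate 1.

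Among clusters of replicate 1, the 1 with the most partnered peaks lay on chromosome 3 from 6746255 to 6748230, where all 4 peaks had a partner. Their folds ran from 2.23 to 2.96 in replicate 1. The last 2 shared a single long partner with a fold of 2.22, and the first and second had partners at 2.67 and 2.80. None of the 4 stood on the lowest background. The cluster on chromosome 1 from 36201758 to 36203278 had 3 peaks, each with a partner of its own. Its summits lay 82, 64 and 13 bp from those of replicate 2, and its folds were 4.09 and 3.69 (3.89 ± 0.284, mean ± SD, n = 2 libraries) at the first peak, 2.81 and 2.95 (2.88 ± 0.0981) at the second and 3.58 and 3.45 (3.51 ± 0.0966) at the third. All 3 stood on the lowest background in replicate 1, and their order of strength was the same in both libraries. Their pileups in replicate 1 were 15 (exact 95% Poisson interval 8.40 to 24.7), 10 (4.80 to 18.4) and 13 (6.92 to 22.2), and these intervals overlap.

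The cluster on chromosome 9 from 18646156 to 18647776 also had 3 peaks with separate partners. Its middle peak was alike in both libraries, with folds of 4.09 and 4.18 (4.14 ± 0.0636, SD, n = 2) and summits 7 bp apart. Its first peak had 4.09 in replicate 1 and 2.71 in replicate 2, and its last 2.81 and 3.69. The cluster on chromosome 11 from 23679183 to 23680595 had folds of 3.57, 4.09 and 2.81, and its last 2 peaks shared a single partner with a fold of 3.45. The cluster on chromosome 10 from 8038610 to 8039802 held 4 peaks spaced 291, 328 and 377 bp apart, 3 of them with partners of their own. Their folds were 2.82, 2.85 and 3.07 in replicate 1 and 2.70, 2.74 and 3.14 in replicate 2. At the cluster on chromosome 1 from 42908061 to 42908880, the last 2 peaks shared a partner with a fold of 2.71.

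**Figure D5:**
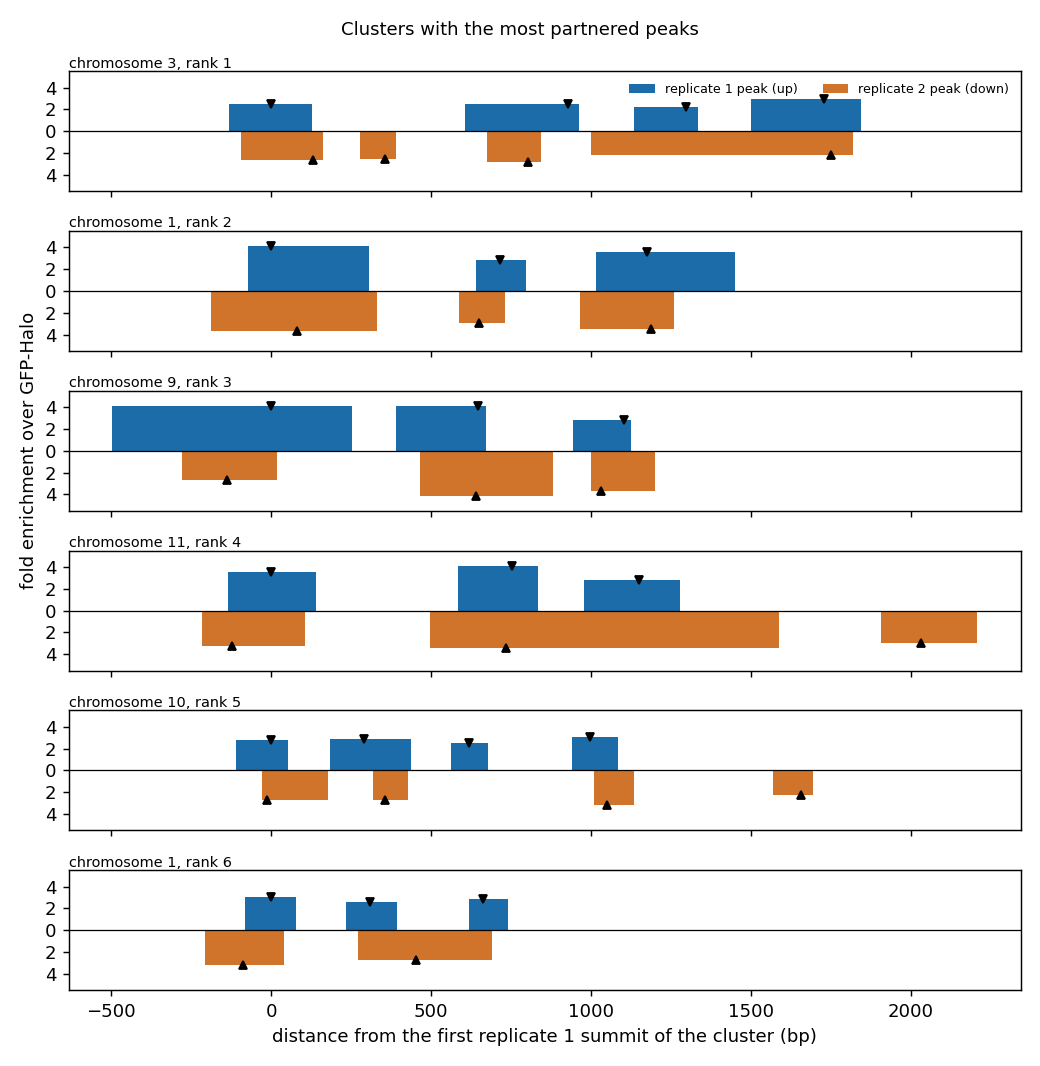
The 6 replicate 1 clusters with the most partnered peaks, 1 per row, with each peak drawn over its length at its fold enrichment over GFP-Halo, replicate 1 upward and replicate 2 downward; triangles mark summits and the horizontal axis is the distance in bp from the first replicate 1 summit. Single long replicate 2 peaks lie under 2 replicate 1 peaks in the rows of chromosome 3, of chromosome 11 and of chromosome 1 at rank 6, while in the row of chromosome 1 at rank 2 all 3 peaks have a partner of their own.

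Some of the strongest peaks of the lists had a weaker neighbour in a cluster; they were chosen after their values were seen. The highest fold of a clustered peak in replicate 1 was on chromosome 10 from 6078877 to 6079100, at 6.40, with a neighbour 362 bp away at 3.58. Its partner in replicate 2 had a fold of 8.12 and was isolated. The strongest of replicate 2, on chromosome 10 from 7646921 to 7647186, had a fold of 7.14 and a neighbour 331 bp away with 2.69, and its partner in replicate 1, at 8.19, was isolated. The next 3 of replicate 2 all had a fold of 5.41 and a partner in replicate 1 that was isolated, at 4.35, 3.58 and 4.86. Over the 5 highest folds of clustered peaks in each list, 9 of 10 had a partner, and 7 of these partners were isolated. Isolated peaks made up 85.6% of all peaks under the pileup bound in replicate 1 and 84.5% in replicate 2, so isolated partners were not unusual. In 3 of the 9 cases, at distances of 362, 331 and 196 bp, the partner was a longer peak (789, 842 and 517 bp) that also covered the summit of the weaker neighbour, and in the other 6 it did not.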

How the data were processed

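The deposited data were 2 peak lists, 1 for each OsWRKY11-Halo library, with GFP-Halo as the control of both, per the peak names. The submitters' processing notes name MACS2 2.2.7.1, BWA 0.7.12-r1039 and Trimmomatic 0.36, with no role or options. No source used here gives the genome build or read filters. A deposited pileup (a coverage signal), a fold enrichment (a ratio to local background) and a -log10 p-value and q-value describe each peak, per the file headers. No list holds a fold under 2.00. The local background is 1 less than the quotient of (pileup + 1) and fold, and values within 0.001 of the lowest were counted as lowest.

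Peaks with a pileup of 40 or more were dropped from both lists, and summits within 1000 bp were joined. Uniform placement was computed per chromosome, up to its last peak, from the density of peaks. The partner of a peak was the overlapping peak (at least 50% of the shorter) with the nearest summit. Intervals at 95% are Wilson intervals for shares, exact Poisson intervals for numbers of pairs and, for ratios of shares, intervals from the log ratio. They reflect counting error alone. They take peaks and pairs as independent, which neighbouring peaks are not, so they may be too narrow. PCR copies, which no molecular identifiers mark here, may be counted among the fragments. All planned comparisons are descriptions, with no p-value.

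The rule, the members and the alternatives were chosen with earlier results of these data known. Clusters were named by a rule: in each list the 3 with the most peaks, ties by median fold, and the 6 of replicate 1 with the most partnered peaks, ties by the mean of the lower fold of each pair. Steps were tested on simulated lists. Statistics came from scipy 1.17.1 and numpy 2.4.6, tables from pandas 2.3.3 and figures from matplotlib 3.10.9, under Python 3.11.15.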

Additional observations from a re-analysis of the deposited data

How the results depend on the processing

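No ratio reversed in any of the alternatives run, and 40 of the 96 values stayed within the interval of the main value, among them all those with no peak dropped or with peaks of a pileup of 20 or more dropped. With clusters within 500 bp the clustered share was 6.08% and 6.71% (replicate 1 and 2 throughout), its ratio to uniform placement 1.46 and 1.21, the median spacing 382 and 380 bp, and the ratio for unpartnered neighbours 1.55 in replicate 1. Within 2000 bp these were 24.4% and 27.8%, 1.56 and 1.36, 871 and 926 bp, and 1.50 and 1.63, the ratio of recovery was 1.73 and 1.75, and 7.59% of replicate 2 clusters had 2 or more partnered peaks. With q-values of at most 0.05 the clustered share was 7.89% and 7.16%, its ratio to uniform placement 3.21 and 2.31, the ratio of recovery 1.60 and 1.76, clusters with 2 or more partnered peaks 21.0% and 17.2%, the neighbour ratio 1.44 and 1.93, and the replicate 2 spacing 578 bp. With folds of at least 3 these were 9.28% and 6.79%, 2.70 and 2.29, 1.78 and 1.76, 19.0% and 17.3%, 1.48 and 2.12, and 575 bp. The density of each 1 Mb window gave 1.70 and 1.39. Clusters with 2 or more partnered peaks made up 19.4% and 14.4% with any overlap of at least 1 bp, 3.49% and 2.35% with 50% of both peaks, and 5.85% and 4.05% with summits at most 100 bp apart, as the rule for a partner becomes stricter. The ratio of recovery was 1.55 and 1.58 with 50% of both peaks, 1.70 and 1.78 with summits within 100 bp, 1.71 and 1.81 weighted to fold classes, and 1.57 and 1.68 weighted to length classes. The causes of the other shifts were not tested. Weighting to length and to local density, the leftmost peaks and the lowest background were added after the data were seen, and the last 3 left the ratio between 1.87 and 2.08. Each list was analysed alone, and with a single replicate recovery cannot be counted. No paired analysis was possible because the result comes from no test and GFP-Halo has 1 library. The median pileup was 11, and whether sites were missed in a library for lack of fragments was not tested.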

Other observations

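The number of clusters differed along the chromosomes, as did the number of peaks. Of the 368 whole windows of 1 Mb, 26 held no cluster in replicate 1 and 9 in replicate 2, with medians of 2 and 4 clusters and maxima of 10 and 14. Across windows the variance of the number of clusters was 1.34 times its mean in replicate 1 and 1.25 times in replicate 2, and the numbers in both lists had a Pearson correlation of 0.381 and a Spearman correlation of 0.342. Windows share the libraries and the control, so these are descriptions. The window with the most clusters over both lists was on chromosome 11 from 26000001 to 27000000, with 10 in each. It also held more peaks than most, 78 in replicate 1 and 79 in replicate 2 beside medians of 43 and 56 per window, and 26.9% and 31.6% of them were clustered. It was followed by chromosome 11 from 28000001 to 29000000 with 5 and 14, and by chromosome 7 from 20000001 to 21000000 and chromosome 9 from 17000001 to 18000000, with 8 and 10 and with 9 and 9. These 3 windows held 63, 64 and 55 peaks in replicate 1 and 84, 88 and 66 in replicate 2, all above the medians. Of their peaks, 15.9%, 31.25% and 34.5% were clustered in replicate 1 and 34.5%, 29.5% and 34.8% in replicate 2. Over all peaks under the pileup bound the shares were 14.4% and 15.5%. A window with more peaks holds more clusters at uniform placement too. These windows were picked for their many clusters, and whether clustering itself differs between windows was not tested.

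Clustered peaks made up 24.5% of the replicate 1 peaks with a partner and 26.5% of the replicate 2 peaks with a partner, beside 14.4% and 15.5% of all peaks under the pileup bound. In clusters of 3, the first and second spacings had a Pearson correlation of 0.0600 in replicate 1 (108 clusters) and 0.00334 in replicate 2 (163 clusters).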
